A study of Mus musculus with 8 samples.

Results

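Interferon-stimulated genes are the antiviral and immune genes that cells switch on when interferon reaches them, and 37 of them were followed here by name over every array of a mouse skin study. Members were found as probe sets that carry 1 gene symbol in the platform annotation and whose symbol was in the list, which gave 36 genes with 1 probe set each. Ifi44 was not matched and is not analysed here. The 36 genes stood among 19572 probe sets with 1 symbol and 22206 probe sets tested in all.

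The study put total RNA from the back skin of C3H males, mice of an inbred strain, on 8 Clariom S Mouse arrays, with 2 arrays for each of 4 groups. The animals were aged 7 weeks, had 7 days to settle, and after depilation of the back received a daily application for 20 days. The treatments were tieghemelin at 1%, maslinic acid at 1%, and minoxidil at 1%, a known hair growth drug, and controls received Milli-Q water. For minoxidil array 2 the labels disagree, with 1% in one field and 2% in another. The titles of the control arrays call them controls of tieghemelin and maslinic acid, and the minoxidil arrays were set against the same pair. The labels give 8 mice per group but do not tie an array to a mouse, so the spread between arrays may be technical. All groups share strain, sex, depilation and length of treatment.

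Type I interferon binds a receptor on the cell surface, and its kinases activate a complex with Stat2 and Irf9 that binds the interferon-stimulated response element in promoters. Interferon gamma acts through the gamma-activated sequence and drives guanylate-binding proteins and antigen processing. In skin these genes are known for the response to virus and to nucleic acid from damaged cells, and many hold a low level without infection.

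Of the 36 measured genes, 27 had a RefSeq promoter entry (build GRCm38.p6), a window of 300 bases with 250 before and 50 after the start, and 9 had none. The response element core was searched on both strands as GAAANNGAAA and the gamma-activated sequence as TTCNNNGAA. A core was found in 13 of the 27 genes (48.1%), against 4.0% of all 27025 genes with an entry. The gamma-activated letters were found in 7 (25.9%), against 9.6% of all genes, and 3 genes held both motifs and 10 held neither. A match of letters is a description and not a measured binding site. The 250 bases before the start are shown for 5 genes with a core, 3 of the antiviral response and 2 of the guanylate-binding family. Capitals mark the cores, written 5′ to 3′ on the gene's own strand, where a core on the other strand reads TTTC, any pair of bases, TTTC.
Ifit1, chr19:34640639-34640888, plus strand: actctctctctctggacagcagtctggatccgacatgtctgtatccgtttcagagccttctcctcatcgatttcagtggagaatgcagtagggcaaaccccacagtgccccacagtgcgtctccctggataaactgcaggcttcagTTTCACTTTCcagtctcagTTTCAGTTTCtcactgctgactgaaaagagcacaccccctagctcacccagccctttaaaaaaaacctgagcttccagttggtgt
Ifit3, chr19:34583279-34583528, plus strand: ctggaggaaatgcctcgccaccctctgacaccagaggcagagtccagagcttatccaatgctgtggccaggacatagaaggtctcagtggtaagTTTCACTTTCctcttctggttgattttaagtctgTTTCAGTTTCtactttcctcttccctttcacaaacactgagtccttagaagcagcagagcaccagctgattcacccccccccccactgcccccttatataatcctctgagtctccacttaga
Isg15, chr4:156200819-156201068, minus strand: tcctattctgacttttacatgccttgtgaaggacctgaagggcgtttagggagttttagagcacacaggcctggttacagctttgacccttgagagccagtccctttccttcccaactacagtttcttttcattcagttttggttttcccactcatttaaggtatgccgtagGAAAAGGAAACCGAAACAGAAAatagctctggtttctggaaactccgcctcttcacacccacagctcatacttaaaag
Gbp2, chr3:142620413-142620662, plus strand: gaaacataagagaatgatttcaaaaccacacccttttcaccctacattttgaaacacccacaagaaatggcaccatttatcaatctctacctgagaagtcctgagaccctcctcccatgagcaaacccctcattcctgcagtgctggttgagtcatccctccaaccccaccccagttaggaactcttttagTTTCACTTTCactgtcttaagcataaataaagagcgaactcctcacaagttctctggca
Gbp3, chr3:142559794-142560043, plus strand: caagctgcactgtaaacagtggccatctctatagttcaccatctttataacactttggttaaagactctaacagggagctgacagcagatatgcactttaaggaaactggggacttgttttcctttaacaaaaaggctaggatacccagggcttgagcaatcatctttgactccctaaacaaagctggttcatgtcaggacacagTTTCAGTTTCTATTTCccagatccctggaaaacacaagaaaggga

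The Isg15 promoter held 3 cores that overlap in 1 run, with first bases 78, 72 and 66 before the start. Those of Ifit1 stood apart at 104 and 85, and those of Ifit3 at 156 and 122. Gbp3 held a pair that overlap at 45 and 39 from the first of its starts, and Gbp2 held 1 core at 59.

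Control array 1 stood apart from the rest. Its correlation over all tested probe sets with the other arrays was 0.518 to 0.538, whereas the other 7 arrays correlated with each other at 0.901 to 0.966. Every value against control is therefore given with and without it. Background was the median of 23 antigenomic probe sets, designed to match nothing in the genome, and came to 7.02 and 6.97 on the tieghemelin arrays, 6.96 and 7.08 on the maslinic acid arrays, 7.51 and 7.33 on the minoxidil arrays, and 7.75 and 7.61 on control arrays 1 and 2. Values are deposited log2 values throughout, and a difference of 1 is a doubling. Keratinocyte markers were above background in 8 of 8 cases on each tieghemelin and maslinic acid array, in 7 on each minoxidil array, and in 6 and 8 on control arrays 1 and 2. The arrays are bulk skin, so fewer cells of a type and less RNA per cell cannot be told apart.

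Many of the interferon-stimulated genes lay near or below background. Above it were 24 and 27 of the 36 on the tieghemelin arrays, 25 and 26 on the maslinic acid arrays, 23 and 23 on the minoxidil arrays, and 23 and 19 on control arrays 1 and 2. Over all probe sets the shares were 79.2% and 80.3%, 80.3% and 77.7%, 66.2% and 71.4%, and 56.9% and 62.4% in the same order of arrays. Of the 36, 15 were above background on all 8 arrays and 17 on all 7 arrays other than control 1, against 38.4% and 53.3% of all probe sets. On at least 6 of those 7 arrays 21 genes were above it, against 64.4% of all probe sets. Above it on 1 to 5 of them were 8 genes, and on none of them 7 genes were, the latter against 12.2% of all probe sets. Cxcl10, Irf7, Oasl1, Rsad2 and Trim25 were above background on no array at all, which also held for 9.3% of all probe sets. The median of a mixed set of probe sets is no detection call for a single gene.

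**Figure D1:**
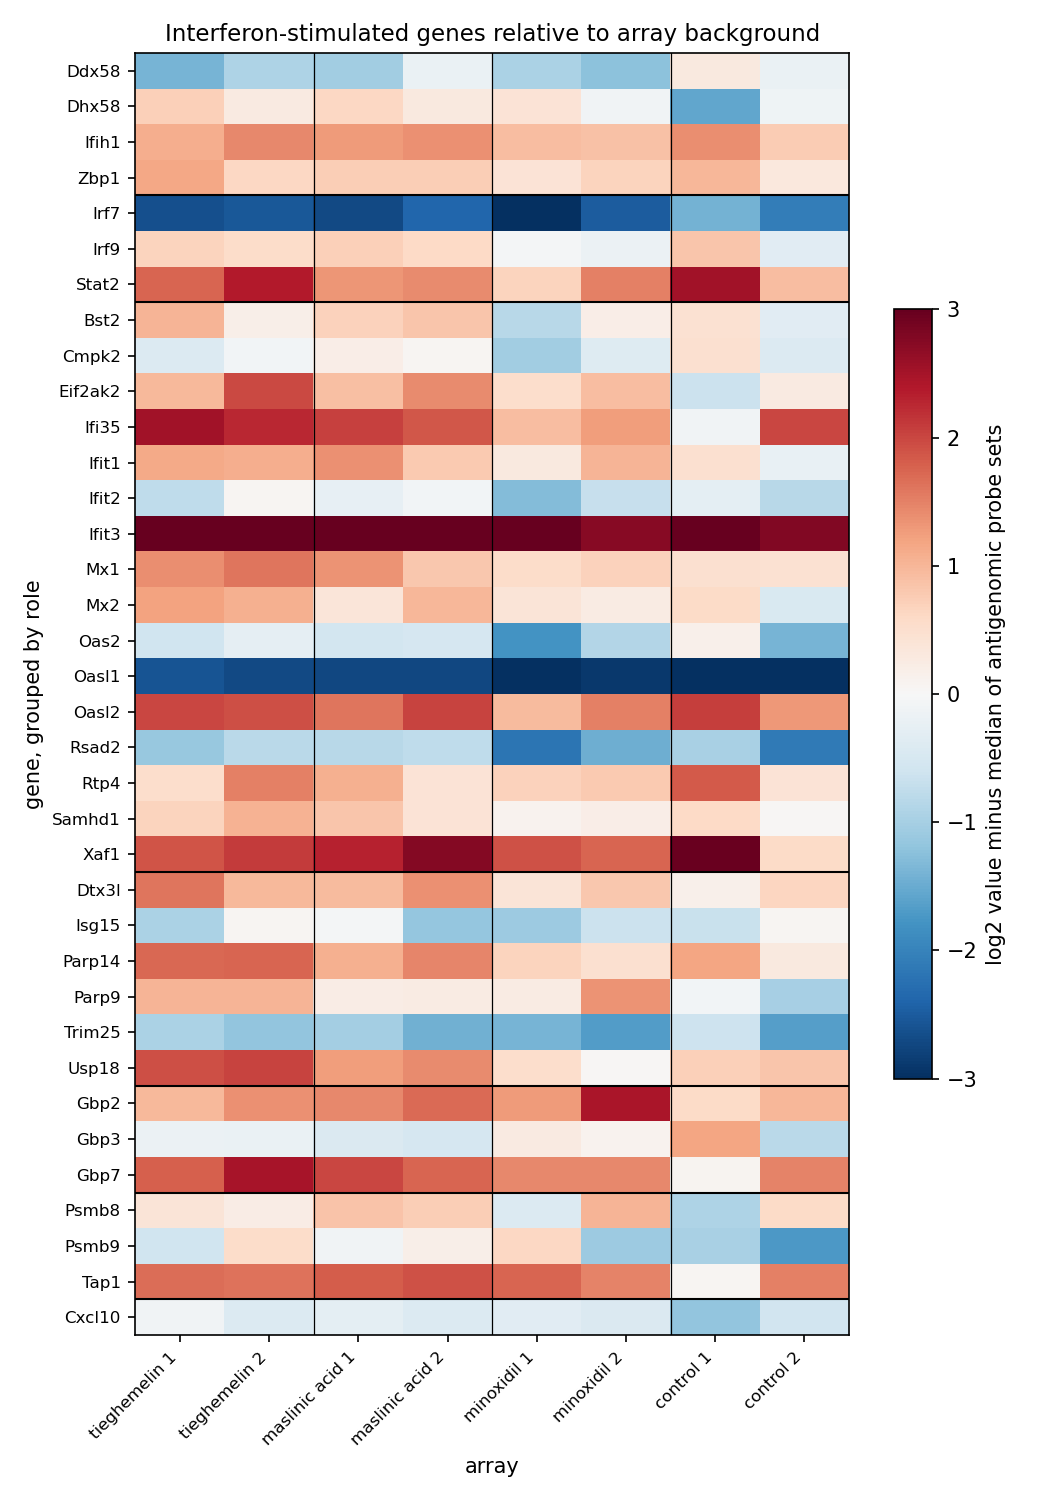
Heat map of 36 interferon-stimulated genes (down, grouped by role) on 8 arrays (across), coloured by log2 value minus the array's antigenomic median, with colours limited at -3 and 3. Ifit3 is far above background on every array, Irf7 and Oasl1 are far below it on every array, and the control 1 column departs from its neighbours in both directions.

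**Figure D2:**
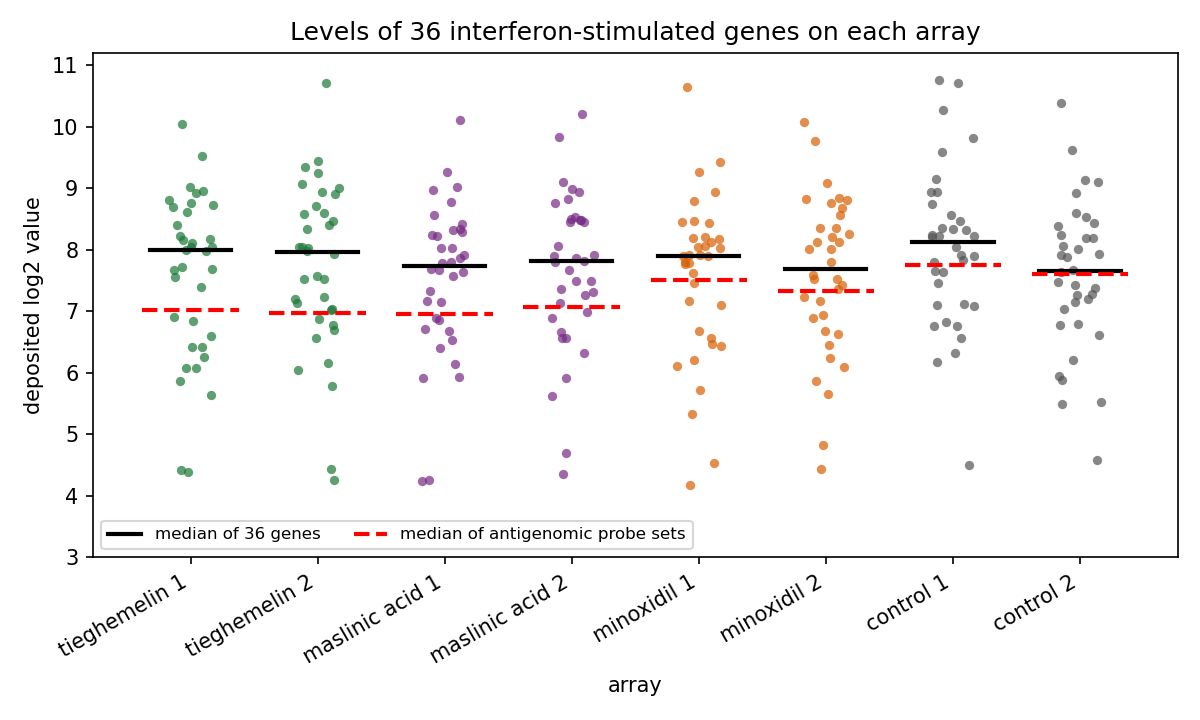
Deposited log2 values of the 36 genes, 1 point a gene, on each array, with the median of the genes (black) and of the antigenomic probe sets (red, dashed). The gene median lies 0.97 and 0.99 above background with tieghemelin, 0.78 and 0.73 with maslinic acid, and 0.39 and 0.36 with minoxidil. On control arrays 1 and 2 it lies 0.38 and 0.05 above background. The background itself was higher on the control arrays (7.75 and 7.61) than on the tieghemelin arrays (7.02 and 6.97). The gene median alone ran from 7.66 on control 2 to 8.13 on control 1. The median of all probe sets ran from 7.96 on control 1 to 8.06 on minoxidil array 1.

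Receptors that sense viral RNA and misplaced DNA come first in the pathway. Ifih1, which encodes MDA5, the sensor of long double-stranded RNA, gave 8.11 and 8.41 with tieghemelin, 8.25 and 8.45 with maslinic acid, 8.43 and 8.21 with minoxidil, and 9.15 and 8.39 on control arrays 1 and 2. Control array 1 was the high one, and control 2 lay among the treated arrays. Zbp1, a sensor of Z-form nucleic acid that can trigger cell death, gave 8.18 and 7.58 with tieghemelin, 7.69 and 7.81 with maslinic acid, 7.92 and 8.01 with minoxidil, and 8.75 and 7.94 on control arrays 1 and 2. The same array was high and the other control again overlapped the treated groups. Dhx58, which encodes LGP2, a regulator of the other RNA sensors, was near background at 7.23 to 7.91 on the treated arrays, with 6.18 and 7.48 on control arrays 1 and 2. Ddx58, which encodes RIG-I, the sensor of short viral RNA ends, gave 5.64 and 6.05 with tieghemelin, 5.92 and 6.89 with maslinic acid, 6.56 and 6.09 with minoxidil, and 8.05 and 7.42 on control arrays 1 and 2. Both controls were above all treated arrays, but only control 1 was above background.

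Among the transcription factors, Stat2 was the only one above background on all 8 arrays. It gave 8.76 and 9.34 with tieghemelin, 8.29 and 8.49 with maslinic acid, 8.19 and 8.83 with minoxidil, and 10.28 and 8.53 on control arrays 1 and 2. Control 2 lay inside the range of the treated arrays and control 1 was well above it. Irf9, its partner, was at 7.16 to 7.68 on treated arrays, with 8.57 and 7.28 on control arrays 1 and 2. Irf7, which amplifies interferon production, gave 4.39 and 4.44 with tieghemelin, 4.26 and 4.70 with maslinic acid, 4.53 and 4.83 with minoxidil, and 6.32 and 5.53 on control arrays 1 and 2. The controls were the high pair, yet no array was above its background.

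The antiviral effectors were the largest group, with 16 genes, of which 10 were above background on at least 6 of the 7 arrays other than control 1. Ifit3, a partner of Ifit1 in binding foreign RNA, gave 10.05 and 10.71 with tieghemelin, 10.12 and 10.20 with maslinic acid, 10.66 and 10.07 with minoxidil, and 10.76 and 10.39 on control arrays 1 and 2. All groups overlapped apart from a narrow excess on control 1. Ifit1, which binds viral RNA that lacks a host cap mark, gave 8.17 and 8.05 with tieghemelin, 8.34 and 7.88 with maslinic acid, 7.80 and 8.36 with minoxidil, and 8.24 and 7.38 on control arrays 1 and 2. Control 2 was the low array and was below its background. Mx1, a GTPase that blocks influenza virus and is defective in most inbred mouse strains, gave 8.41 and 8.58 with tieghemelin, 8.32 and 7.90 with maslinic acid, 8.07 and 8.01 with minoxidil, and 8.23 and 8.07 on control arrays 1 and 2. Both controls lay inside the treated range. Mx2, a related GTPase, gave 8.23 and 8.04 with tieghemelin, 7.34 and 8.07 with maslinic acid, 7.90 and 7.58 with minoxidil, and 8.33 and 7.16 on control arrays 1 and 2. The controls were at the opposite ends of the 8 arrays.

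Oasl2, a relative of the enzymes whose oligoadenylates activate RNase L, gave 9.03 and 8.90 with tieghemelin, 8.56 and 9.10 with maslinic acid, 8.46 and 8.85 with minoxidil, and 9.82 and 8.92 on control arrays 1 and 2. Only control 1 left the common range. Eif2ak2, which encodes PKR, the kinase that stops translation when it meets double-stranded RNA, gave 7.99 and 8.94 with tieghemelin, 7.87 and 8.49 with maslinic acid, 8.04 and 8.26 with minoxidil, and 7.10 and 7.89 on control arrays 1 and 2. Here control 1 was the lowest array and was below its background. Samhd1, which breaks down the nucleotides that retroviruses need, gave 7.68 and 8.02 with tieghemelin, 7.79 and 7.50 with maslinic acid, 7.63 and 7.52 with minoxidil, and 8.35 and 7.64 on control arrays 1 and 2. Rtp4, a receptor-transporting protein, gave 7.55 and 8.47 with tieghemelin, 8.02 and 7.50 with maslinic acid, 8.20 and 8.12 with minoxidil, and 9.60 and 8.01 on control arrays 1 and 2. In both genes control 1 was the high array and control 2 overlapped the treated ones.

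Xaf1 and Ifi35 showed how far the controls could part. Xaf1, which promotes cell death by opposing the inhibitor XIAP, gave 8.92 and 9.07 with tieghemelin, 9.26 and 9.83 with maslinic acid, 9.43 and 9.08 with minoxidil, and 10.71 and 8.20 on control arrays 1 and 2. One control was above and the other below all 6 treated arrays. Ifi35, an interferon-induced leucine zipper protein, gave 9.53 and 9.24 with tieghemelin, 9.02 and 8.94 with maslinic acid, 8.45 and 8.57 with minoxidil, and 7.65 and 9.63 on control arrays 1 and 2. The controls again enclosed every treated array, in the opposite order. The 6 dimmer effectors were Bst2, which tethers budding virus, Cmpk2, a mitochondrial nucleotide kinase, Ifit2, Oas2, Oasl1 and Rsad2, which encodes viperin. Bst2 was above background on 5 of the 7 arrays other than control 1, Cmpk2 on 2, Ifit2 on 1 and the other three on none. Cmpk2 gave 6.61 and 6.88 with tieghemelin, 7.16 and 7.13 with maslinic acid, 6.47 and 6.95 with minoxidil, and 8.23 and 7.21 on control arrays 1 and 2.

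The ISG15 group includes Isg15, a ubiquitin-like tag that interferon induces, and the enzymes that add or remove such marks. Isg15 was at or below background nearly everywhere, with 6.07 and 7.02 with tieghemelin, 6.90 and 5.91 with maslinic acid, 6.43 and 6.68 with minoxidil, and 7.09 and 7.68 on control arrays 1 and 2. Both controls were above the treated arrays, and tieghemelin 2 and control 2 alone passed their background. Usp18, which removes ISG15 and damps signalling at the interferon receptor, gave 8.96 and 9.005 with tieghemelin, 8.22 and 8.51 with maslinic acid, 8.04 and 7.36 with minoxidil, and 8.46 and 8.44 on control arrays 1 and 2. The tieghemelin arrays were the highest pair and the minoxidil arrays the lowest, and neither overlapped another group. Trim25, a ubiquitin ligase that activates RIG-I, was at 5.63 to 6.12 on treated arrays, with 7.13 and 5.95 on control arrays 1 and 2.

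Dtx3l and Parp9 encode partners in a ubiquitin ligase and ADP-ribosylation complex, Parp14 encodes a further ADP-ribosyltransferase, and the 3 genes lie next to each other in the RefSeq annotation. Dtx3l gave 8.62 and 7.94 with tieghemelin, 7.92 and 8.45 with maslinic acid, 7.91 and 8.13 with minoxidil, and 7.90 and 8.25 on control arrays 1 and 2. All groups overlapped for this gene. Parp9 gave 8.05 and 7.99 with tieghemelin, 7.18 and 7.32 with maslinic acid, 7.77 and 8.68 with minoxidil, and 7.66 and 6.62 on control arrays 1 and 2. Maslinic acid lay below both other treatments, and neither control was above background. Parp14 gave 8.74 and 8.72 with tieghemelin, 8.04 and 8.53 with maslinic acid, 8.18 and 7.80 with minoxidil, and 8.94 and 7.91 on control arrays 1 and 2. Tieghemelin lay above both other treatments and between the controls.

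Guanylate-binding proteins are GTPases that coat and break vacuoles of intracellular pathogens. Gbp2 gave 8.00 and 8.34 with tieghemelin, 8.42 and 8.77 with maslinic acid, 8.79 and 9.78 with minoxidil, and 8.33 and 8.60 on control arrays 1 and 2. The 3 treatments did not overlap, with minoxidil highest and tieghemelin lowest. Gbp3 gave 6.85 and 6.78 with tieghemelin, 6.53 and 6.57 with maslinic acid, 7.78 and 7.43 with minoxidil, and 8.93 and 6.80 on control arrays 1 and 2. Among the treated arrays only those of minoxidil were above background. Gbp7 gave 8.81 and 9.44 with tieghemelin, 8.97 and 8.83 with maslinic acid, 8.95 and 8.76 with minoxidil, and 7.83 and 9.11 on control arrays 1 and 2. Control 1 was the one low array there. Gbp7 and Gbp3 are neighbours in the annotation, and 1 gene lies between Gbp3 and Gbp2.

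Antigen processing was represented by Tap1, a subunit of the peptide transporter, and by the immunoproteasome subunits Psmb8 and Psmb9. Tap1 gave 8.70 and 8.60 with tieghemelin, 8.78 and 8.98 with maslinic acid, 9.26 and 8.81 with minoxidil, and 7.81 and 9.14 on control arrays 1 and 2. Psmb8 gave 7.40 and 7.20 with tieghemelin, 7.81 and 7.82 with maslinic acid, 7.10 and 8.36 with minoxidil, and 6.82 and 8.20 on control arrays 1 and 2. Control 1 was the lowest array for both genes, and control 2 lay among the treated arrays. Psmb9 ranged from 6.24 to 8.13 on the treated arrays, both ends with minoxidil, and was 6.77 and 5.89 on control arrays 1 and 2. Cxcl10, the chemokine that draws activated T cells, was at 6.57 to 7.17 on treated arrays, with 6.56 and 7.03 on control arrays 1 and 2.

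Control array 1 was the highest of all 8 arrays for 20 of the 36 genes and the lowest for 8, against 29.8% and 35.5% of all probe sets. Among the 21 genes above background on at least 6 of the other 7 arrays it was highest for 10, against 19.3% of all such probe sets, and among the other 15 genes it was highest for 10, against 48.9%. It was above control 2 in 25 of 36 genes, against 47.8% of all probe sets, and the median of control 1 minus control 2 was 0.78 for the genes and -0.07 for all probe sets. Regardless of sign, the control arrays lay 0.93 apart at the median for the genes and 0.89 for all probe sets. The same gap was 0.29 within tieghemelin, 0.27 within maslinic acid and 0.38 within minoxidil. Both controls were above all 6 treated arrays for 5 genes, Cmpk2, Ddx58, Irf7, Isg15 and Oasl1, and below all of them for 0, against 6.9% and 9.1% of all probe sets. Of these 5, Irf7 and Oasl1 were below background on all 8 arrays.

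With tieghemelin and all 8 arrays, 13 of the 36 genes were higher and 23 lower than control, against 52.4% and 47.6% of all probe sets. The median log2 difference was -0.20, against 0.05 over all probe sets, and it turned to 0.49 when arrays were shifted to a common antigenomic median, a scaling that moved the median of all probe sets by 0.69. Relative to all probe sets the genes were then at -0.24, as they were before the shift. Among the 24 genes whose mean was above mean background the median was 0.0181, with 12 genes higher and 12 lower. The median of all probe sets kept by that filter was 0.17, and relative to them the genes were at -0.16. At the study's thresholds, described next, the shift gave 8 genes higher, among them Usp18, Mx1, Mx2 and Parp9, and 1 lower, against 30.4% of all probe sets. In limma 0 genes passed an adjusted p of 0.05, as did 0% of all probe sets, and 2 had an unadjusted p up to 0.05. The study called genes at 1.7-fold with an unadjusted p up to 0.05, and by these thresholds there were 2 genes (5.56%), both lower, against 11.7% of all probe sets. Ddx58 differed by -1.89 ± 0.46 (SE, n = 2 each, limma adjusted p = 0.41). Since no tieghemelin array was above background, Ddx58 is given as at least 1.67-fold lower on deposited values. This bound is not a minimum fold once background is taken into account. Ddx58 stood at 0.30 and -0.19 relative to background on control arrays 1 and 2, whose background was higher than that of the tieghemelin arrays. Irf7 differed by -1.51 ± 0.41 (limma adjusted p = 0.41) and has no fold, with neither group above background.

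Without control 1, which leaves 1 control array that is assumed to vary like the other groups, the tieghemelin median was 0.02 for the genes and 0.02 for all probe sets. There were then 20 genes higher and 16 lower, and 5 at the study thresholds, against 13.7% of all probe sets. The 5 were Mx2 and Parp9, higher, and Ddx58, Irf7 and Isg15, lower. Parp9 differed by 1.39 ± 0.42 (SE, 2 arrays against 1, limma adjusted p = 0.192) and was at least 1.32-fold higher, since control 2 was below background. Mx2 differed by 0.98 ± 0.40 (limma adjusted p = 0.325) and was at least 1.44-fold higher. No interferon-stimulated gene passed the adjusted threshold in limma, 5 had an unadjusted p up to 0.05, and 0.356% of all probe sets passed.

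With maslinic acid and all 8 arrays, 14 genes were higher and 22 lower than control, against 52.7% and 47.3% of all probe sets. The median difference was -0.13, against 0.05 over all probe sets, and it turned to 0.53 under the antigenomic shift, where all probe sets moved by 0.66 and the study thresholds gave 2 genes higher and 0 lower, against 28.3% of all probe sets. Among the 24 genes whose mean was above mean background it was 0.0002, with 12 genes higher and 12 lower. The median of all probe sets kept by that filter was 0.18. Relative to them the genes were at -0.18, as they were before the filter. In limma 0 genes passed the adjusted threshold, as did 0% of all probe sets, and 2 had an unadjusted p up to 0.05. Those 2 met the study thresholds (5.56%), against 10.8% of all probe sets, and both were lower. Irf7 differed by -1.45 ± 0.41 and Ddx58 by -1.33 ± 0.46 (SE, n = 2 each, limma adjusted p = 0.448 for both). Ddx58 was at least 1.64-fold lower by a bound with the same limit as for tieghemelin, and Irf7 has no fold. Without maslinic acid array 1 neither met the thresholds, and 1 gene, Isg15, did, against 4.66% of all probe sets. Without control 1 the median was -0.06, and 4 genes met the study thresholds, against 12.8% of all probe sets. Xaf1 was the one higher gene among them, with 1.35 ± 0.39 (SE, 2 arrays against 1, limma adjusted p = 0.195), and Ddx58, Irf7 and Isg15 were lower. Isg15 was at least 1.58-fold lower by a bound with the same limit, and stood only 0.07 above background on control 2. With this array left out, 0 genes and 0.0045% of all probe sets passed the adjusted threshold in limma, and 4 genes had an unadjusted p up to 0.05.

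With minoxidil and all 8 arrays, 10 genes were higher and 26 lower than control, against 53.3% and 46.7% of all probe sets. The median difference was -0.32, against 0.06 over all probe sets. The direction of this median held under each scaling, with -0.06 under the antigenomic shift at the upper end, where the study thresholds gave 1 gene higher, Parp9, and 2 lower, against 14.4% of all probe sets. In limma 0 genes passed the adjusted threshold, as did 0% of all probe sets, and 3 had an unadjusted p up to 0.05. Those 3 met the study thresholds (8.33%), against 11.3% of all probe sets, and were all lower. Ddx58 differed by -1.41 ± 0.46, Irf7 by -1.25 ± 0.41 and Cmpk2 by -1.01 ± 0.44 (SE, n = 2 each, limma adjusted p = 0.44, 0.44 and 0.442). Cmpk2 did not meet the thresholds under the antigenomic shift, with the replicate block, with minoxidil and control arrays alone, without control 1, or when any of the 6 treated arrays was left out. Ddx58 did not meet them without minoxidil array 2, nor Irf7 without minoxidil array 1 or with the 2 groups alone. As bounds on deposited values, Ddx58 was at least 1.24-fold lower and Cmpk2 at least 1.23-fold lower. These are not minimum folds either, since Cmpk2 stood at 0.48 and -0.41 relative to background on control arrays 1 and 2. Without control 1 the median was -0.05 and 7 genes met the study thresholds (19.4%), against 12.9% of all probe sets. Gbp3, Parp9 and Xaf1 were the higher ones and Ddx58, Ifi35, Irf7 and Isg15 the lower ones. Parp9 differed by 1.60 ± 0.42, Ifi35 by -1.12 ± 0.35 and Xaf1 by 1.06 ± 0.39 (SE, 2 arrays against 1, limma adjusted p = 0.187, 0.237 and 0.294). In that fit 0 genes and 0.0045% of all probe sets passed the adjusted threshold in limma, and 7 genes had an unadjusted p up to 0.05.

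**Figure D3:**
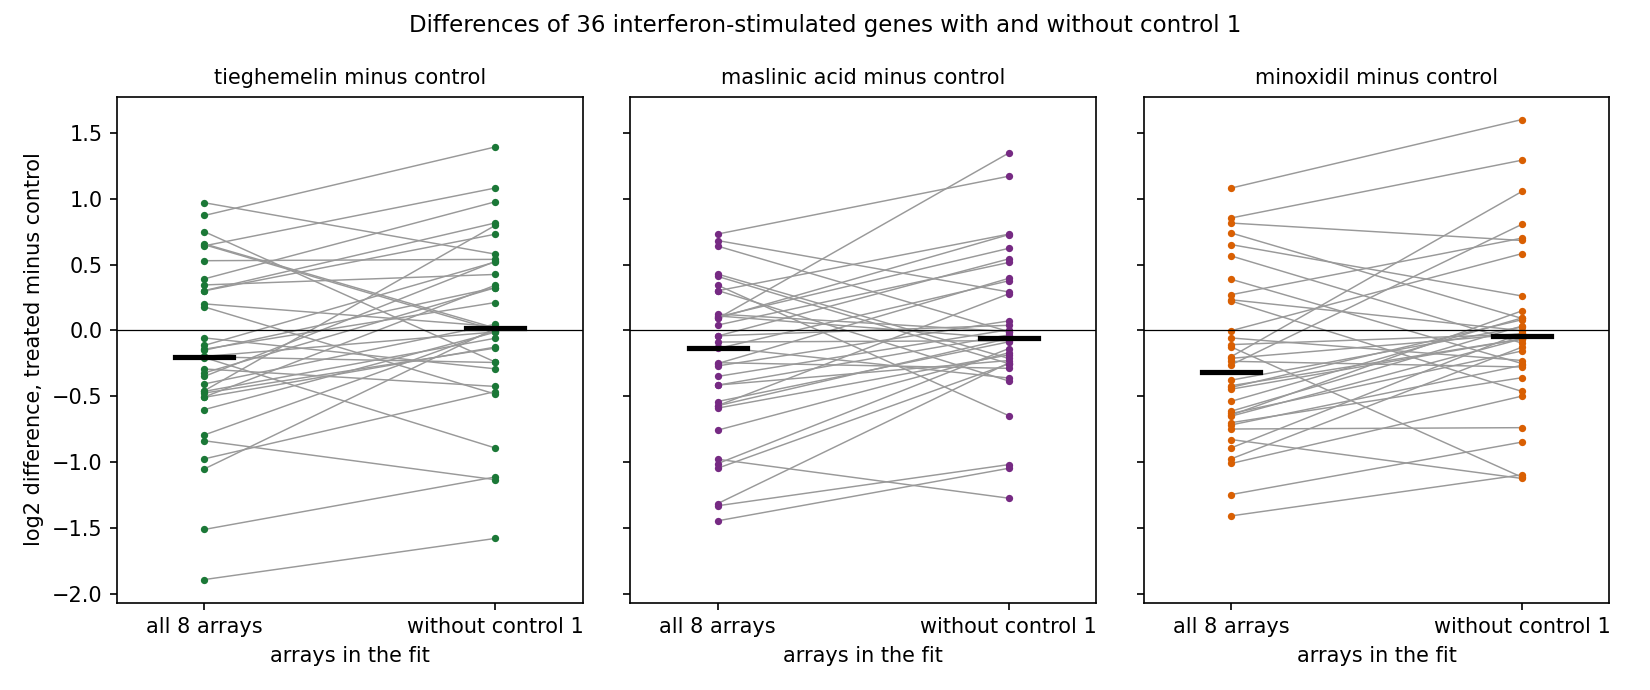
Log2 difference of each of 36 genes from control for tieghemelin, maslinic acid and minoxidil, fitted on all 8 arrays and without control 1, with lines joining a gene and black bars at the medians. The medians are -0.20, -0.13 and -0.32 with all arrays and 0.02, -0.06 and -0.05 without control 1, and many lines cross 0.

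Shares of called genes were thus close to or below those of all probe sets in the 3 comparisons with all 8 arrays, and the counts are no result about interferon-stimulated genes as a group. The 3 comparisons share their control arrays. Ddx58 and Irf7 met the thresholds in all of them, with and without control 1, yet neither was above background on control 2 or on any treated array. Leaving out control 2 in place of control 1 gave 18, 18 and 21 genes at the study thresholds for tieghemelin, maslinic acid and minoxidil, and 13, 12 and 14 at an adjusted p under 0.05, against 47.3% of all probe sets at the study thresholds and 37.7% at the adjusted one for minoxidil, so those fits rest on control 1 alone. Skeletal muscle markers also differed between these groups, with a summed log2 level of 12.9 and 12.2 with tieghemelin, 16.6 and 13.0 with maslinic acid, 16.0 and 14.7 with minoxidil, and 18.1 and 18.9 on control arrays 1 and 2. Of the 10 muscle markers, 8 were above background on all 8 arrays, and their part in the differences was not tested.

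Comparisons among treatments do not use the control arrays and were fitted on the 6 treated arrays. Tieghemelin against minoxidil had 21 genes higher and 15 lower, against 47.2% and 52.8% of all probe sets. The median difference was 0.03, against -0.03 over all probe sets. In limma 0 genes passed the adjusted threshold, as did 0% of all probe sets, and 5 had an unadjusted p up to 0.05. At the study thresholds there were 4 genes (11.1%), against 10.4% of all probe sets. Usp18 was higher by 1.28 ± 0.32, a 2.43-fold difference (SE, n = 2 each, limma adjusted p = 0.22), and Ifi35 was higher by 0.88 ± 0.29 (limma adjusted p = 0.272). Gbp2 was lower, with a difference of -1.11 ± 0.37 (limma adjusted p = 0.276). Gbp3 had a difference of -0.79 ± 0.29 (limma adjusted p = 0.313) and was at least 1.53-fold lower, because neither tieghemelin array was above background. This bound on deposited values is not a minimum fold. Gbp3 was only 0.27 and 0.10 above background on the minoxidil arrays, whose background was the higher one. Parp14 had an unadjusted p of 0.038 at a difference of 0.74 ± 0.31, under the fold threshold. Usp18 met the study thresholds under each alternative that was run, with differences of 0.94 to 1.71. It was the 1 gene left without tieghemelin array 1, against 7.12% of all probe sets. The antigenomic shift, which moved the median of all probe sets by 0.43, gave 9 genes higher and 0 lower at the study thresholds, against 20.6% of all probe sets. Only Usp18 then passed the adjusted threshold (limma adjusted p = 0.0398), as did 1.31% of all probe sets, against 0% without the shift. Fits that leave out 1 array were run on the deposited values alone, so this call was not tried with an array left out.

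Maslinic acid against minoxidil had 20 genes higher and 16 lower, against 47.7% and 52.3% of all probe sets. The median difference was 0.03, against -0.03 over all probe sets. In limma 0 genes passed the adjusted threshold, as did 0% of all probe sets, and 2 had an unadjusted p up to 0.05. Those 2 met the study thresholds (5.56%), against 11.1% of all probe sets. Gbp3 had a difference of -1.05 ± 0.29 (SE, n = 2 each, limma adjusted p = 0.205) and was at least 1.50-fold lower, a bound with the same limit. Parp9 had a difference of -0.98 ± 0.34 (limma adjusted p = 0.27). Without maslinic acid array 1 only Gbp3 was left, against 10.3% of all probe sets, and without minoxidil array 1 there were 4 genes, against 11.8%. The antigenomic shift, by 0.40 for all probe sets, gave 7 genes higher and 0 lower, against 19.8%. Usp18 lay between the other treatments, higher than minoxidil by 0.66 ± 0.32 (limma adjusted p = 0.4). Macrophage markers had a summed log2 level of 12.7 and 12.5 with tieghemelin, 12.1 and 12.4 with maslinic acid, and 11.7 and 12.0 with minoxidil, and 3 of the 9 measured were above background on all 8 arrays. Keratinocyte markers summed to 11.9 and 12.1 with tieghemelin, 12.7 and 12.3 with maslinic acid, and 13.2 and 12.0 with minoxidil. The part of either cell type in the differences from minoxidil was not tested.

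Tieghemelin and maslinic acid were close, with 22 genes higher and 14 lower with tieghemelin, against 50.7% and 49.3% of all probe sets. The median difference was 0.08, against 0.01 over all probe sets. The differences of single genes ran from -0.56 to 0.77. In limma 0 genes passed the adjusted threshold, as did 0% of all probe sets, and 1 had an unadjusted p up to 0.05. That gene was Parp9 at the study thresholds, 1 of 36 (2.78%), against 1.56% of all probe sets. It was higher with tieghemelin by 0.77 ± 0.34 (SE, n = 2 each, limma adjusted p = 1), and it met the thresholds neither without tieghemelin array 1, tieghemelin array 2 or either maslinic acid array, nor under any other scaling that was tried. Stat2 differed by 0.66 ± 0.34 and Usp18 by 0.62 ± 0.32 (limma adjusted p = 1 for both). A p that misses the threshold does not show that the compounds act alike.

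**Figure D4:**
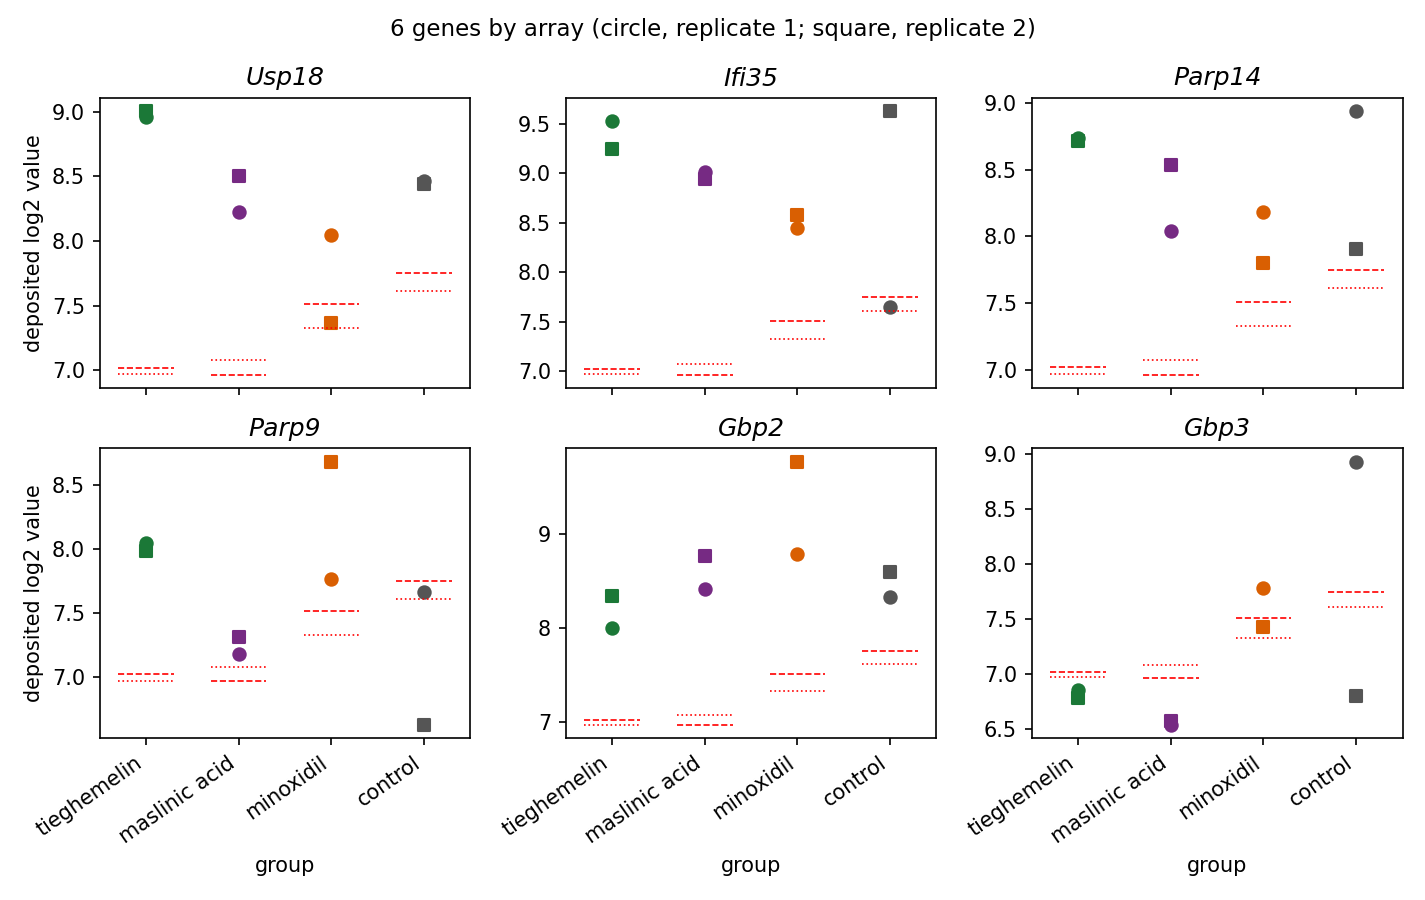
Deposited log2 values of Usp18, Ifi35, Parp14, Parp9, Gbp2 and Gbp3 by group, with circles for replicate 1, squares for replicate 2, and red lines for the antigenomic median of each array (dashed for 1, dotted for 2). Tieghemelin and minoxidil do not overlap for Usp18, Ifi35, Parp14, Gbp2 and Gbp3, and the control arrays lie up to 2.14 apart, for Gbp3. The genes were picked for differences between treatments on these same arrays, so a lack of overlap was to be found by design. The share of all probe sets without overlap was not counted.

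Other genes of the pathway were taken from 5 lists. Interferon ligands had 19 of 21 genes measured, receptors and signalling proteins 19 of 20, nucleic acid sensors and adaptors 13 of 15, other antiviral genes 40 of 46, and interferon gamma GTPases, chemokines and antigen presentation genes 24 of 32. None of these genes (0) passed an adjusted p of 0.05 in limma, in the 3 comparisons with control on all 8 arrays or in the 3 among treatments on the 6 treated arrays. Ifng, interferon gamma itself, gave 9.39 and 9.41 with tieghemelin, 9.65 and 9.67 with maslinic acid, 9.75 and 9.08 with minoxidil, and 7.32 and 9.26 on control arrays 1 and 2. Control 1 was the low array and was below its background. Of the 19 ligands, 16 and 17 were above background with tieghemelin, 16 and 16 with maslinic acid, and 14 and 15 with minoxidil. On control arrays 1 and 2 there were 11 and 13. Whether these probe sets report ligand RNA was not tested. At the study thresholds, tieghemelin against control had 2 ligands higher and 1 lower, 2 signalling genes higher, 0 sensors, 1 other antiviral gene higher and 3 lower, and 2 interferon gamma genes higher, against 11.7% of all probe sets. Maslinic acid against control had 1 ligand lower, 1 signalling gene higher, 0 sensors, 2 other antiviral genes higher and 1 lower, and 2 interferon gamma genes higher and 1 lower, against 10.8%. Minoxidil against control had 1 ligand higher, 0 signalling genes, 0 sensors, 1 other antiviral gene higher and 4 lower, and 2 interferon gamma genes higher, against 11.3%.

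Lgals3bp, which encodes a secreted glycoprotein that binds galectin 3, was the largest difference among the antiviral genes for tieghemelin against control without control 1. It gave 9.29 and 9.03 with tieghemelin, 8.50 and 9.43 with maslinic acid, 7.66 and 8.03 with minoxidil, and 7.93 and 7.46 on control arrays 1 and 2. Both compounds were above minoxidil and both controls with no overlap. Its difference from control was 1.46 ± 0.43 with tieghemelin and 1.27 ± 0.43 with maslinic acid (SE, n = 2 each, limma adjusted p = 0.41 and 0.448). Against minoxidil it was 1.32 ± 0.36 and 1.12 ± 0.36 (limma adjusted p = 0.232 and 0.251). Ifnlr1, the receptor subunit for interferon lambda, gave 8.23 and 8.19 with tieghemelin, 7.94 and 8.01 with maslinic acid, 6.82 and 7.39 with minoxidil, and 8.93 and 7.47 on control arrays 1 and 2. It was above minoxidil by 1.11 ± 0.31 with tieghemelin and by 0.87 ± 0.31 with maslinic acid (limma adjusted p = 0.233 and 0.27).

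B2m, the light chain of MHC class I, was the only gene of the 5 lists to pass an adjusted p of 0.05 without control 1. It gave 7.75 and 8.67 with tieghemelin, 8.42 and 8.24 with maslinic acid, 8.07 and 8.06 with minoxidil, and 7.31 and 10.94 on control arrays 1 and 2. Control 2 was far above the other 7 arrays and control 1 was the lowest, below its background. Without control 1 the difference was -2.73 ± 0.42 with tieghemelin, -2.61 ± 0.42 with maslinic acid and -2.88 ± 0.42 with minoxidil (SE, 2 arrays against 1, limma adjusted p = 0.0339, 0.0932 and 0.075). With all 8 arrays it was -0.92 ± 0.99 with tieghemelin (limma adjusted p = 0.675), so the call rests on control 2. Keratinocyte markers were also highest on that array, with a summed log2 level of 14.4, against 11.9 to 13.2 on the treated arrays and 12.0 on control 1, and their part in the difference was not tested.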

How the data were processed

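The deposited values are on a log2 scale, as judged from their range, and the authors normalised the scans in Transcriptome Analysis Console, per the labels' design text. Affymetrix Expression Console and RMA are also named, per the submitters' processing notes. RMA is meant to make the distribution of signal alike across arrays, so a shift shared by most genes is largely removed. In the deposited values control 1 still differed in spread. Its SD over all tested probe sets was 1.32, against 1.62 to 1.69 on the other arrays. The build of the array design is not given in the sources used here.

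The 6640 control probe sets were dropped, and the 22206 others entered the tests as deposited, with no added scaling or filter. Gene symbols came from the platform annotation. Differences were fitted in R 4.3.3 with lmFit and eBayes of limma 3.58.1, with Benjamini-Hochberg adjustment over all tested probe sets. Comparisons with control used all 8 arrays (4 residual degrees of freedom), and comparisons among treatments used the 6 treated arrays (3). A 2-sided permutation test of 2 arrays against 2 cannot go below 0.33, and the number of arrays limits the precision. The study's own thresholds, 1.7-fold and an unadjusted p of 0.05, were counted as well. Where no array of a group was above the antigenomic median, a fold is given as a bound, with each dim array at the higher of its own value and that median. Such a bound compares deposited values and is not corrected for background. It is no minimum fold where the brighter group has the higher background.

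The members and the gene lists were chosen with earlier results of these data known. Genes above background on at least 6 of the 7 arrays other than control 1, genes at the study thresholds and the 5 largest differences of a comparison were to be given array by array, the others by range. From each pathway list up to 3 genes per comparison could be named, by the largest difference without control 1. Ifng was added after its values were seen. The alternatives were quantile normalization, a shift to a common median or antigenomic median, a filter on mean background, trend and robust settings, other sets of arrays, a replicate block, and leaving out each array. The code was tested on simulated data.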

Additional observations from a re-analysis of the deposited data

How the results depend on the processing

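Leaving out 1 array at a time, the number of interferon-stimulated genes at an adjusted p under 0.05 ranged over 0 to 13 for tieghemelin against control, 0 to 12 for maslinic acid and 0 to 14 for minoxidil, with each upper value without control 2. At the study thresholds the ranges were 2 to 18, 1 to 18 and 2 to 21, also highest without control 2. Without control 1 they were 5, 4 and 7. The median difference ranged from -0.44 to 0.02, -0.606 to -0.0606 and -0.767 to -0.0456. Tieghemelin against minoxidil had 1 to 6 genes at the study thresholds and a median of 0.0196 to 0.192, and the count was 1 without tieghemelin 1. Maslinic acid against minoxidil had 1 to 4, with 1 without maslinic acid 1 and 4 without minoxidil 1, and tieghemelin against maslinic acid 0 to 1. Under the antigenomic shift, the medians were 0.49 (tieghemelin against control), 0.53 (maslinic acid against control), 0.46 (tieghemelin against minoxidil) and 0.43 (maslinic acid against minoxidil). There 9 genes were at the study thresholds for tieghemelin against control, where 30.4% of all probe sets were. Tieghemelin against minoxidil had 9, against 20.6%, with 1 at the adjusted threshold, against 1.31%. Maslinic acid against minoxidil had 7, against 19.8%, and tieghemelin against maslinic acid had 0, against 1.57%. The filter on mean background kept 24 of the 36 genes. At the study thresholds it left 0 genes in the 3 comparisons with control. The shares of all probe sets kept were 11.9% for tieghemelin, 10.9% for maslinic acid and 11.4% for minoxidil. It left 1 for maslinic acid against minoxidil, against 12.1%, and 0 for tieghemelin against maslinic acid, against 1.5%. With the filter the tieghemelin against minoxidil median was 0.26. The filter also gave medians of 0.0181 for tieghemelin and 0.0002 for maslinic acid against control, each with 12 genes higher and 12 lower. Neither median kept its lower direction. The medians of all probe sets kept were 0.17 and 0.18, and relative to them the genes were still lower, at -0.16 and -0.18. Without the filter they were at -0.24 and -0.18 relative to all probe sets. Quantile normalization gave a median of 0.0734 for tieghemelin against minoxidil. With the 2 groups alone, maslinic acid and minoxidil against control had 1 each at the study thresholds, against 3.7% and 3.08% of all probe sets. A fit on all 8 arrays gave 2 for tieghemelin against minoxidil, 0 for maslinic acid against minoxidil and 0 for tieghemelin against maslinic acid. The shares of all probe sets were 3.3%, 3.6% and 0.306% in that order. Parp9 for tieghemelin against maslinic acid was also lost (0 genes) under quantile normalization, the common median, and the trend and robust settings. Replicate numbers came from the labels and did not pair the arrays, since the differences of replicate 1 minus 2 correlated at -0.17 to 0.09 between groups. The replicate block gave 0 for tieghemelin against maslinic acid, as did a crossed replicate block that was chosen after seeing the data. The shares of all probe sets were 1.57% and 1.63%. The cause of these changes was not tested. Genes that met the study thresholds in the main fits gave 195 values at these settings. Of these, 148 kept their direction and side of the threshold, 47 kept the direction alone, and 0 reversed. The genes were picked for large differences on the same arrays, so few reversals were to be found by design. Several settings also leave the difference itself as in the main fit, so that a reversal could not occur there. These are the replicate block, the trend and robust settings, the 2 groups alone, all 8 arrays, and leaving out an array of a group not compared. Over all 36 genes, directions did change. For tieghemelin against control 13 genes were higher in the main fit, where 52.4% of all probe sets were. There were 20 without control 1, against 51.2% of all probe sets, and 30 under the antigenomic shift. That shift moved the median of all probe sets by 0.69, and relative to all probe sets the genes stayed at -0.24. Many of these genes lie at or below background, which limits every fold given.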
